A study of Homo sapiens with 6 samples.

Results

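The nuclear genes for subunits of oxidative phosphorylation were followed in RPMI-8402 cells, a human T-cell acute lymphoblastic leukaemia (T-ALL) line. They were picked by symbol: the NDUF genes of complex I, SDHA to SDHD of complex II, CYC1 and the UQCR genes of complex III, the widely expressed COX genes of complex IV and the ATP5 genes of complex V. Of 63677 gene rows in the count table, 93 carried such a symbol, and 1 row per symbol, the one with the highest total count, left 75 genes: 37 of complex I, 4 of complex II, 9 of complex III, 10 of complex IV and 15 of complex V. The 18 rows left out were second identifiers, of which 14 held 0 counts and the highest a total of 40. All 75 genes passed the filter on low counts, as did 15949 genes in all. NDUFA4 is counted with complex I by its name, although its protein is now assigned to complex IV.

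All cells stably expressed Cas9 and were grown in medium with tetracycline-free serum. In the DOX group, doxycycline switched on guide RNAs for 72 hours, and in the DMSO group the cells received the solvent. The series design names guides to MYC and MYCN, the treatment text names MYC alone, and the genotype label of the DOX group names MYCN alone. Each group held 3 libraries of total RNA, called here by group and column number: DOX 12, 24 and 36, and DMSO 11, 23 and 35. Cells given doxycycline without guides were not analysed here, so the drug and the guides cannot be told apart. Separate cultures are not stated for the 3 libraries of either group, and the p-values therefore cover only differences between libraries, perhaps technical ones. The sources used here do not give the promoter driving Cas9, or whether the line was 1 clone.

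Oxidative phosphorylation is carried out in the inner mitochondrial membrane. Complexes I and II take electrons from NADH and succinate and pass them to coenzyme Q, complex III passes them on to cytochrome c, and complex IV to oxygen. Complexes I, III and IV pump protons, and complex V, the ATP synthase, makes ATP as the protons flow back. Most subunits are encoded in the nucleus and imported, while a few core subunits of every complex but II are encoded in mitochondrial DNA. MYC is known as an activator of genes of mitochondrial biogenesis, which is the background to asking how these genes behave when MYC and MYCN are targeted.

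Totals ran from 28602145 to 29204148 counts per library. MYCN, in CPM (read counts divided by the library total times its TMM scaling factor, brought to a common library size), had 46.2, 50.1 and 53.7 CPM in DOX 12, 24 and 36, against 76.8, 109.5 and 86.9 CPM in DMSO 11, 23 and 35. Its groups did not overlap, and its log2 fold change was -0.87 ± 0.13 (SE), with an adjusted p of 0.0726 by edgeR and of 1.1e-05 by DESeq2. MYC had 205.9, 200.5 and 192.8 CPM in the DOX libraries, against 278.9, 201.5 and 255.7 CPM in the DMSO libraries (log2 fold change -0.30 ± 0.12, adjusted p = 0.176 by edgeR and 0.159 by DESeq2). A short insertion or deletion made by Cas9 need not lower the RNA of its target, so these levels are a limited check of the labels. DMSO 11 stood apart from its group over all genes: its mean chi-square per gene was 81.0 and 70.6 against DMSO 23 and 35, but 11.1 to 15.6 against the DOX libraries. Calls of members that change when it is left out are therefore given both ways below. Those of the other lists are given as counts, with values for some genes. Of 13 T lymphoid markers 11 were measured above the filter, CD1A and CD1E being at or near 0, and their summed level was 2022 to 2083 CPM in DOX and 2073 to 2229 CPM in DMSO, with PTCRA and LMO1 called lower by DESeq2. Summed levels were 6.13 to 7.97 CPM in DOX and 5.43 to 7.18 CPM in DMSO for 6 B cell markers (MS4A1 at 0), and 1.63 to 1.98 CPM in DOX and 0.947 to 1.69 CPM in DMSO for 6 myeloid markers (ELANE at 0). For 6 epithelial and stromal markers (PECAM1 at 0) they were 9.49 to 10.6 CPM in DOX and 2.87 to 7.11 CPM in DMSO, most of it COL1A1, which DESeq2 called higher in DOX (adjusted p = 0.0148). The part of these markers in the results below was not tested.

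The 13 subunits encoded in mitochondrial DNA were listed at 0 counts in every library, together with all 37 rows of mitochondrial genes, so the nuclear subunits could not be set beside them.

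The promoters of 5 members are shown because these genes carry the results below: ATP5I had the highest fold change of all members, COX6B1 differed most between DMSO libraries, SDHD and NDUFS1 were lower in DOX libraries once DMSO 11 was left out, and ATP5J holds 3 of the 4 motifs searched. Each is the 250 bases before the RefSeq start of build GRCh38.p14, given 5′ to 3′ on the gene's strand, with the motifs in capitals. The motifs, searched on both strands, were GCGCATGCG, the core bound by the respiratory factor NRF1, CCGGAAG, bound by ETS factors such as GABP, CACGTG, the E-box bound by MYC with MAX, and AAGATGGCG, bound by YY1. Different motifs do not overlap in these 5 promoters, but the NRF1 core nearly matches its own reverse complement, so 1 site can be found on both strands, as in SDHD. ATP5I is at chr4:674277-674526 on the minus strand, COX6B1 at chr19:35648073-35648322 on the plus strand, SDHD at chr11:112086623-112086872 on the plus strand, NDUFS1 at chr2:206159445-206159694 on the minus strand and ATP5J at chr21:25735055-25735304 on the minus strand. For NDUFS1 and ATP5J, 2 windows are listed and the first is shown.
ATP5I: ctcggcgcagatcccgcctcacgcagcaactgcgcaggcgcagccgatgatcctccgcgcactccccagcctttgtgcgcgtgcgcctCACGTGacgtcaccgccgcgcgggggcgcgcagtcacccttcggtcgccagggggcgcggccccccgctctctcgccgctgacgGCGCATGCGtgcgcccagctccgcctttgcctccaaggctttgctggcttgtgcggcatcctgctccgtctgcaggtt
COX6B1: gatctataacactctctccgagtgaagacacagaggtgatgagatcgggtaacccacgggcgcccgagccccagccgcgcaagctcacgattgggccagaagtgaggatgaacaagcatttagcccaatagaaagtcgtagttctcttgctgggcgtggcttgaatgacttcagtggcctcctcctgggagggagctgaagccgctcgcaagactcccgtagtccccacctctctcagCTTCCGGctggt
SDHD: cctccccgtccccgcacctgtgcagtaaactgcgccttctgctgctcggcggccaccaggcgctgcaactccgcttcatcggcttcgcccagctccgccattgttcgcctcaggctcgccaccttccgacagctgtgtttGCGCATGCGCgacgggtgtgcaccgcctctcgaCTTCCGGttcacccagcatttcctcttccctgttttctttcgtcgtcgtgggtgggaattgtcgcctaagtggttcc
NDUFS1: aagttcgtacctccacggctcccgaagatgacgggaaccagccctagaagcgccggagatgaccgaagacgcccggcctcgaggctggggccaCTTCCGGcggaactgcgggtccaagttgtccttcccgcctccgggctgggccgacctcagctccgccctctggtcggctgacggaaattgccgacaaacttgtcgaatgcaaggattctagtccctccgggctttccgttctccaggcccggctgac
ATP5J: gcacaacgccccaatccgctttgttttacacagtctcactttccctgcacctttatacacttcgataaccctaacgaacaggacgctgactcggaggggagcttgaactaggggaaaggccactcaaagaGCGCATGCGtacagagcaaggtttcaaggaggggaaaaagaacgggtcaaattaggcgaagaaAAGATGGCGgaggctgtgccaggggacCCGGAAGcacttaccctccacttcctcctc

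In ATP5I the E-box begins 162 bases and the NRF1 core 78 bases before the start, whereas COX6B1 has only an ETS core, on the reverse strand and 12 bases before the start. SDHD has the NRF1 core 110 and an ETS core 77 bases before the start, NDUFS1 an ETS core at 157 bases, and ATP5J the NRF1 core at 120, the YY1 core at 57 and an ETS core at 30 bases. RefSeq promoters were matched by current symbol for 61 of the 75 members. The NRF1 core was in the promoters of 10 of these 61 members (16.4%), against 2.74% of 15843 genes with such a window. The ETS core was in 17 of 61 (27.9%), against 13.98% of all genes. The E-box was in 6 of 61 (9.84%), against 9.73%, or in 0 against 5.44% when only the 100 bases before the start are searched, and the YY1 core in 1 of 61 (1.64%), against 0.972%. So by these letters the subunit promoters held the NRF1 and ETS cores more often than the promoters of all genes with a window. The E-box was about as frequent in the longer window. The genes compared were not matched for expression, so whether this is particular to subunit genes was not tested. The 6 genes with an E-box were ATP5F1, ATP5I, NDUFA11, NDUFA7, NDUFS7 and UQCR11, whose median log2 fold change was 0.08, against 0.02 for members without one. The medians were -0.01 with and 0.03 without the NRF1 core, and -0.05 with and 0.05 without the ETS core, as a description with no test.

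None of the 75 members passed the test between DOX and DMSO. CPM are shares of a bulk library, so fewer cells of a type and less RNA per cell cannot be told apart in what follows. EdgeR called 0 of 75 at an adjusted p under 0.05, where it called 0.0313% of all genes tested. DESeq2 also called 0 of 75, where 9.81% of the 14093 genes with an adjusted p were called, 3.37% higher and 6.44% lower in DOX, and voom called 0 of 75 and 0.0313% of all genes. At an unadjusted p under 0.05 edgeR counted 1 member, ATP5I, which is 1.33% of them, against 26.0% of all genes. DESeq2 counted 3 against 24.5%, and voom 3 against 25.7%. Of the 75 members, 0 had an adjusted p under 0.05 in the authors' deposited table, where 1362 of 14237 genes did, and the smallest value of a member was 0.0645 for ATP5I.

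The fold changes were small and lay on both sides of 0. The median log2 fold change of the members was 0.02, against -0.00 over all genes tested, with 41 positive and 34 negative values that ran from -0.19 for UQCRFS1 to 0.61 for ATP5I. By complex the median was -0.00 for I, 0.04 for II, -0.07 for III, 0.03 for IV and 0.03 for V, and without DMSO 11 it was 0.08 for I, 0.21 for II, 0.08 for III, 0.23 for IV and 0.13 for V. Most intervals were narrow. In 61 of 75 members (81.3%) the 95% interval of the edgeR fold change lay within 1.5-fold in either direction. It did so for 49.8% of all genes and for 74.1% of genes averaging 10 CPM or more. Like the p-values, the intervals cover only differences between these libraries, with DMSO 11 among them. They therefore do not bound an effect of the treatment. In the other 14 members the interval reached a 1.5-fold higher level in DOX, and in 0 of 75 it reached a 1.5-fold lower one. Over all 15949 genes it reached the higher level in 4575 and the lower one in 4334. Of the 9311 genes averaging 10 CPM or more, these were 1087 and 1347. The interval left out 0 in 1 member, ATP5I.

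**Figure D1:**
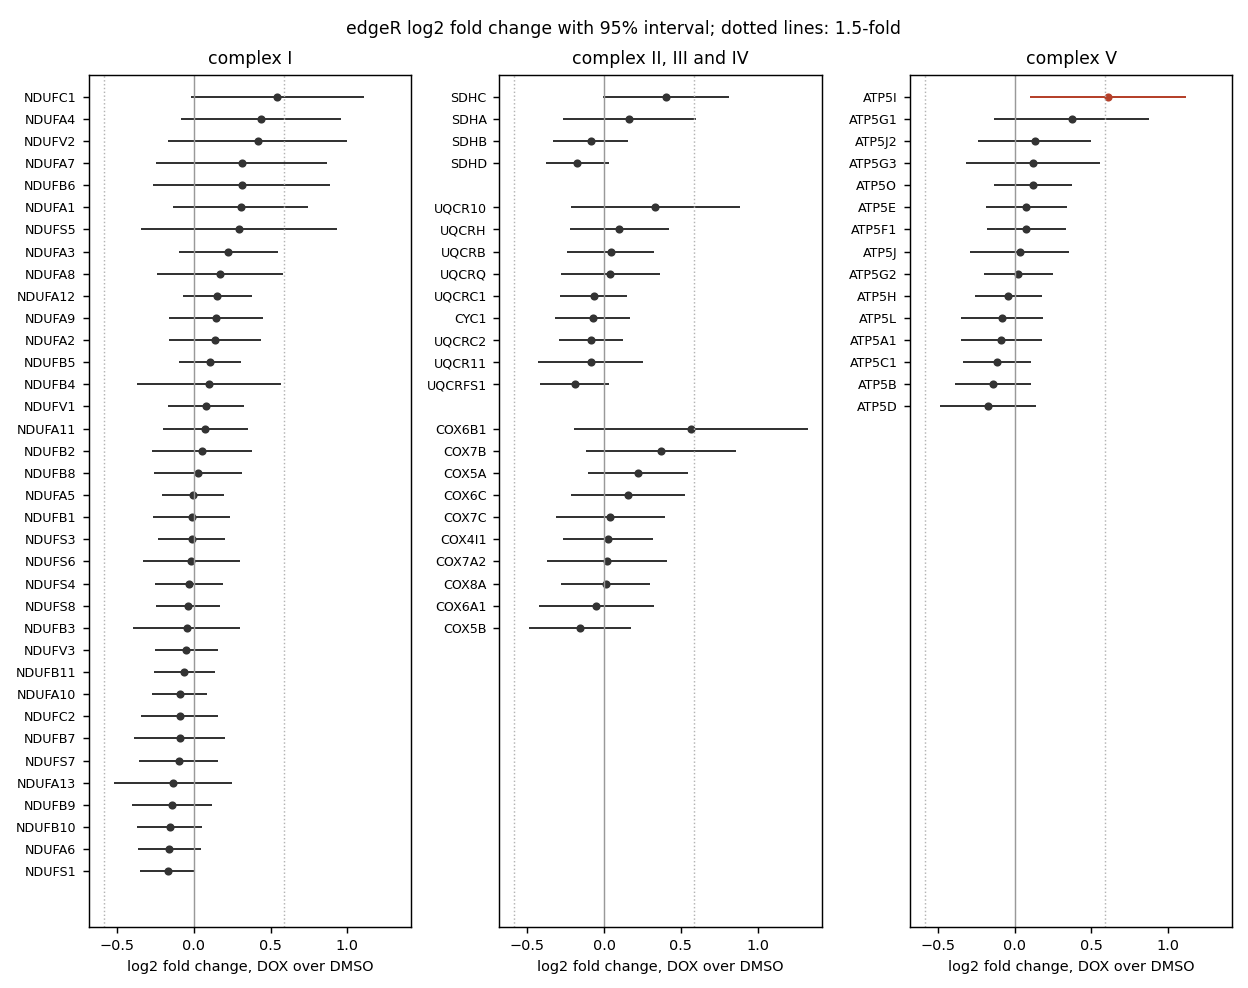
Log2 fold change of the subunit genes named in it, DOX over DMSO, by edgeR (points) with its 95% interval (lines), by complex; dotted lines mark 1.5-fold and the gene in red, ATP5I, is the one whose interval leaves out 0. Values run from -0.19 to 0.61, and most intervals lie between the dotted lines.

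The spread lay mainly between DMSO 11, which was high, and DMSO 35, which was low. DMSO 11 was the highest of the DMSO libraries for 62 of 75 members (82.7%), against 40.8% of all genes. All DOX libraries lay below DMSO 11 and above DMSO 23 and DMSO 35 in 21 members (28.0%). This pattern was found in 9.22% of all genes and in 13.3% of genes averaging 10 CPM or more. Measured as the deviation of log2 CPM from each gene's mean over the 6 libraries, the members' median was -0.03 in DOX 12, 0.11 in DOX 24 and -0.01 in DOX 36, against 0.19 in DMSO 11, -0.05 in DMSO 23 and -0.18 in DMSO 35. The members as a set were thus high in DMSO 11 and low in DMSO 35, with the DOX libraries between, while over all genes these medians were between -0.00 and 0.01. The median range of a member over the DMSO libraries was 0.37 log2 units and over the DOX libraries 0.19, and the DMSO range was the wider in 62 of 75. Only ATP5I had all DOX libraries above all DMSO libraries (1.33% of members, against 14.6% of all genes and 12.6% of genes averaging 10 CPM or more). NDUFS1 and UQCRFS1 had all DOX libraries below all DMSO libraries (2.67%, against 15.6% of all genes and 19.1% of genes averaging 10 CPM or more). In either direction 30.2% of all genes had groups that did not overlap. An exact two-sided permutation test gave p = 0.1 for these 3 genes, the smallest that 3 against 3 libraries allow.

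**Figure D2:**
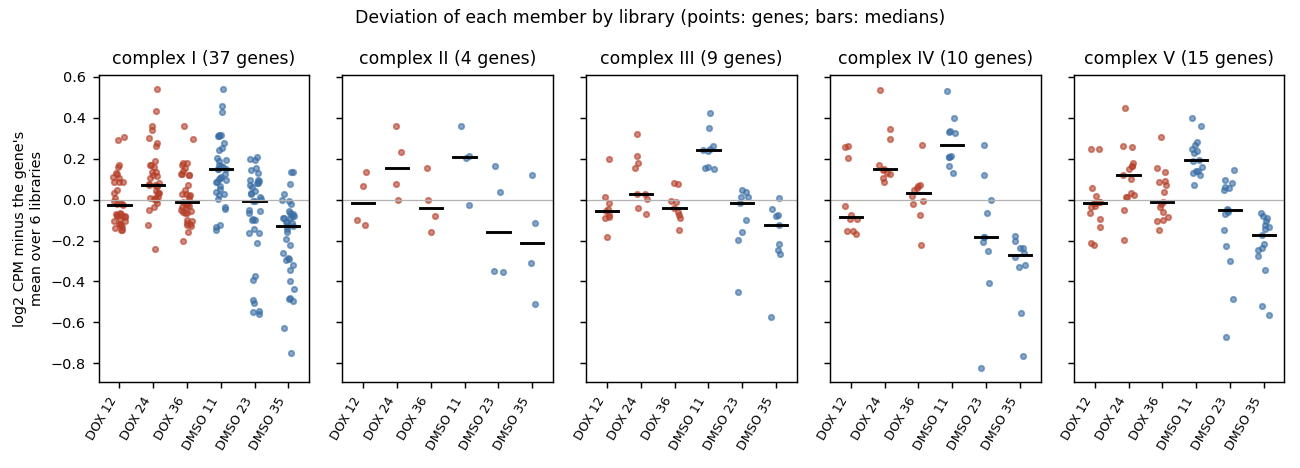
Deviation of each subunit gene in each library, as log2 CPM minus the gene's mean over the 6 libraries, by complex (points, genes; bars, medians; red, DOX; blue, DMSO). In every complex the median is highest in DMSO 11 and lowest in DMSO 35.

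Without DMSO 11 the picture differed. The members' median log2 fold change was then 0.13, against -0.01 over all genes, and edgeR called 25 of 75 members higher and 2 lower in DOX, where it called 49.4% of 16412 genes, 23.7% higher and 25.7% lower. The 25 were 11 of complex I, 2 of II, 2 of III, 4 of IV and 6 of V, and the 2 that were lower were NDUFS1 and SDHD. In that comparison the members' share of higher calls exceeded the share over all genes, and their share of lower calls was far under it. DMSO 11 was singled out from these same counts and was the highest DMSO library in 62 of 75 members. Leaving it out therefore tends to raise DOX over DMSO in the members. Over all genes DMSO 11 was also nearer to the DOX libraries than to DMSO 23 and 35. Without it, edgeR calls rose from 0.0313% to 49.4% of genes tested. The number and direction of these calls give no separate support for a difference in the members or the other lists. The same holds for small adjusted p without DMSO 11 below. The DMSO group then holds 2 libraries, and whether DMSO 11 or DMSO 23 and 35 represent the untreated cells was not tested.

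Complex I takes electrons from NADH through a chain of iron-sulfur clusters in its peripheral arm. Its 7 nuclear core subunits carry the catalysis and had a median log2 fold change of -0.03, with 2 positive values, and its 30 accessory subunits, which stabilise the complex, had a median of 0.04, with 16 positive values. Without DMSO 11 these medians were 0.04 for the core, now with 4 positive values, and 0.12 for the accessory subunits. NDUFS1, the largest core subunit and a holder of iron-sulfur clusters, had 105.3, 111.5 and 106.5 CPM in DOX 12, 24 and 36, against 117.1, 120.9 and 125.3 CPM in DMSO 11, 23 and 35. The groups did not overlap and DMSO 11 was here the nearest DMSO library to DOX (107.8 ± 3.29 CPM in DOX and 121.1 ± 4.10 CPM in DMSO, SD, n = 3 each). Its log2 fold change was -0.17 ± 0.08 (SE), with an edgeR adjusted p of 0.2 with all libraries and 0.0148 without DMSO 11. For the core subunits NDUFS3, NDUFS7 and NDUFS8 of the peripheral arm, the log2 fold changes were -0.01, -0.10 and -0.04, each smaller than 1 SE in size and with overlapping groups.

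NDUFV1 and NDUFV2 form the NADH-oxidising end with a flavin and iron-sulfur clusters. NDUFV1 had 225.4, 211.0 and 200.8 CPM in the DOX libraries, against 228.5, 186.3 and 188.3 CPM in the DMSO libraries, a log2 fold change of 0.08 ± 0.11 (edgeR adjusted p = 0.647), and 0.18 without DMSO 11 (adjusted p = 0.0306). NDUFV2 was read at only 1.28, 1.96 and 1.496 CPM in the DOX libraries, against 1.21, 0.915 and 1.42 CPM in the DMSO libraries, with overlapping groups. The 2 genes encode partner proteins of 1 module, yet NDUFV1 had 302.1 CPM per kilobase of transcript in DOX and 286.0 in DMSO, while NDUFV2 had 1.70 in DOX and 1.27 in DMSO. Exons of other genes on the same strand cover 28.4% of NDUFV2, and 32.3% of NDUFA7, an accessory subunit that was as low (1.64 CPM per kilobase in DOX and 1.32 in DMSO), and how the authors counted reads in such stretches was not given in the sources used here. Members covered in this way had high and low levels. COX8A, covered to 34.5%, had 285.4 CPM per kilobase in DOX and 283.4 in DMSO. NDUFB8, covered to 33.8%, had 23.5 in DOX and 23.03 in DMSO, rank 69 of the 75 members. NDUFA13, covered to 21.0%, had 5.15 in DOX and 5.65 in DMSO. Whether such overlap goes with a low level was not tested. Levels of members with such overlap are uncertain.

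Among the accessory subunits of complex I the highest fold change was that of NDUFC1, a small membrane-arm subunit. It had 43.5, 47.5 and 39.8 CPM in DOX 12, 24 and 36, against 43.7, 25.0 and 20.9 CPM in DMSO 11, 23 and 35. DMSO 11 was at the level of the DOX libraries and the other DMSO libraries were well below (log2 fold change 0.54 ± 0.24, edgeR adjusted p = 0.199, and 0.92 without DMSO 11, adjusted p = 1.4e-07). NDUFA4 had 184.2, 235.5 and 235.1 CPM in DOX, against 228.0, 125.9 and 129.9 CPM in DMSO. NDUFS5, which faces the intermembrane space, had 81.2, 89.6 and 79.3 CPM in DOX, against 105.9, 51.3 and 47.0 CPM in DMSO. NDUFB6, of the membrane arm, had 43.0, 50.4 and 43.3 CPM in DOX, against 54.6, 27.2 and 28.5 CPM in DMSO. In these 3 genes DMSO 11 was again far above DMSO 23 and 35, and the DOX libraries were above both. Their log2 fold changes without DMSO 11 were 0.77, 0.76 and 0.71 (edgeR adjusted p of 7.3e-06, 8.8e-08 and 9.4e-07), against 0.44, 0.29 and 0.31 with it (adjusted p of 0.249, 0.506 and 0.435). The other accessory members had log2 fold changes from -0.16 for NDUFA6 to 0.31 for NDUFA7. Of these, NDUFA1, NDUFA2, NDUFA3, NDUFA8, NDUFA9 and NDUFB4 were called higher without DMSO 11, with log2 fold changes from 0.25 to 0.59, against 0.10 to 0.31 with it.

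**Figure D3:**
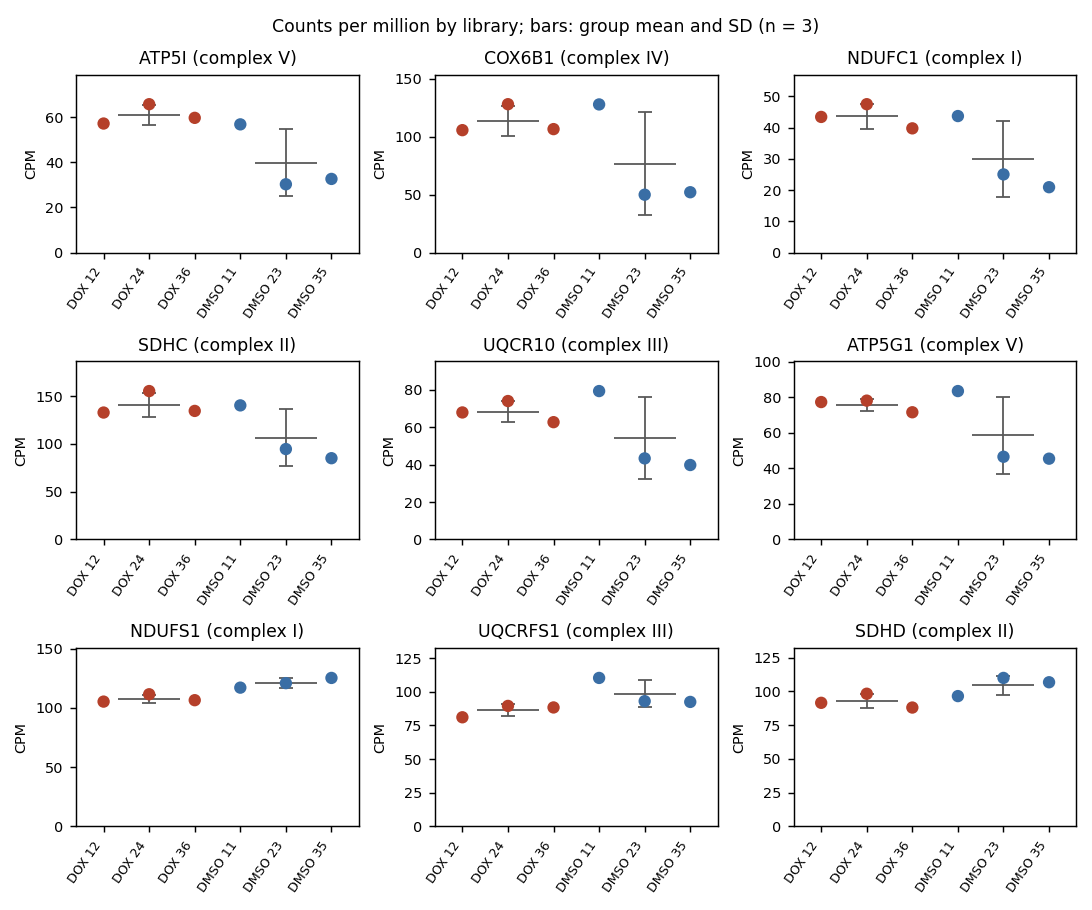
CPM of 9 subunit genes in each library (red, DOX 12, 24 and 36; blue, DMSO 11, 23 and 35), with the group mean and SD (bars, n = 3 each). In the upper 6 genes DMSO 11 lies near the DOX libraries, above all of them in UQCR10 and ATP5G1, and DMSO 23 and 35 lie below. In NDUFS1 every DOX library is below every DMSO library.

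Complex II is succinate dehydrogenase, the enzyme of the citric acid cycle that also feeds the respiratory chain, and it has no mitochondrially encoded subunit. Its membrane anchors differed in sign. SDHC had 132.9, 155.4 and 134.6 CPM in the DOX libraries, against 140.4, 94.7 and 85.1 CPM in DMSO 11, 23 and 35. SDHD, the other anchor, had 91.5, 98.3 and 88.0 CPM in the DOX libraries, against 96.5, 110.0 and 106.8 CPM in the DMSO libraries. The log2 fold changes were 0.40 ± 0.18 for SDHC and -0.17 ± 0.09 for SDHD (edgeR adjusted p of 0.195 and 0.237), and without DMSO 11 they were 0.65 and -0.23 (adjusted p of 1.1e-06 and 0.00713). For both anchors DMSO 11 lay nearer the DOX libraries than DMSO 23 and 35 did. The flavoprotein SDHA, which has near-identical pseudogene copies and may share reads with them, had 186.5, 209.1 and 177.9 CPM in DOX, against 228.7, 139.5 and 143.4 CPM in DMSO (log2 fold change 0.16 ± 0.19, edgeR adjusted p = 0.581, and 0.43 without DMSO 11, adjusted p = 5.1e-05). SDHB, the iron-sulfur subunit, was at 68.1 ± 5.06 CPM in DOX and 72.4 ± 7.89 CPM in DMSO (SD, n = 3 each), within the spread of the libraries.

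Complex III passes electrons from reduced coenzyme Q to cytochrome c. All 4 of its large nuclear subunits had negative log2 fold changes, from -0.19 to -0.07, and 4 of its 5 small subunits had positive ones, with no member called. UQCRFS1, the Rieske iron-sulfur protein, had 81.0, 89.5 and 88.4 CPM in DOX 12, 24 and 36, against 110.3, 93.02 and 92.5 CPM in DMSO 11, 23 and 35. The groups did not overlap, by a margin of about 3 CPM between DOX 24 and DMSO 35 (log2 fold change -0.19 ± 0.10, edgeR adjusted p = 0.238), and the difference was -0.11 without DMSO 11. The haem-bearing CYC1 was at 134.9 ± 3.03 CPM in DOX and 142.0 ± 18.7 CPM in DMSO, and the core proteins UQCRC1 and UQCRC2 at 228.7 ± 8.59 and 185.7 ± 5.85 CPM in DOX and 239.5 ± 20.3 and 196.9 ± 15.2 CPM in DMSO (SD, n = 3 each). Each of these differences was within the SD of the DMSO libraries. UQCR10, a small accessory subunit, had 67.9, 74.0 and 62.7 CPM in DOX, against 79.4, 43.3 and 39.8 CPM in DMSO. Its log2 fold change was 0.33 ± 0.24 (edgeR adjusted p = 0.386) and 0.71 without DMSO 11 (adjusted p = 4.4e-07), since DMSO 11 was the highest and DMSO 23 and 35 the lowest of its 6 libraries. UQCRH, the acidic hinge subunit, had a log2 fold change of 0.10 with all libraries and 0.26 without DMSO 11 (adjusted p = 0.00655 by edgeR). In all 9 genes of complex III DMSO 11 was the highest DMSO library.

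Complex IV hands electrons to oxygen, and its nuclear subunits surround a catalytic core encoded in mitochondrial DNA. Of the 10 genes, 8 had positive log2 fold changes and 0 were called. COX6B1, which binds the side of the complex that meets cytochrome c, had 105.6, 128.0 and 106.5 CPM in DOX 12, 24 and 36, against 127.8, 49.9 and 52.0 CPM in DMSO 11, 23 and 35. Its range over the DMSO libraries, 1.36 log2 units, was the widest of all members, against 0.28 over the DOX libraries. The log2 fold change was 0.57 ± 0.33 (edgeR adjusted p = 0.298), with a 95% interval of -0.19 to 1.32, and 1.15 without DMSO 11 (adjusted p = 2.0e-09). COX7B had 76.6, 78.2 and 67.1 CPM in DOX, against 80.3, 48.1 and 43.4 CPM in DMSO, again with DMSO 23 and 35 below every DOX library (log2 fold change 0.37 with all libraries, and 0.69 without DMSO 11, edgeR adjusted p = 6.6e-07). COX4I1 and COX5A, early partners of the mitochondrially encoded core, were at 195.2 ± 12.2 and 130.9 ± 6.89 CPM in DOX and 192.0 ± 31.2 and 112.2 ± 23.2 CPM in DMSO (SD, n = 3 each). COX5B, which binds zinc, was at 69.6 ± 9.85 CPM in DOX and 77.5 ± 12.6 CPM in DMSO, the lowest log2 fold change of the complex at -0.16. COX7C, with the highest level per length in complex IV, had a log2 fold change of 0.04. The differences of these 4 genes were within the spread of the 3 DMSO libraries. Without DMSO 11, COX5A and COX7C were called higher, at 0.40 and 0.24 (edgeR adjusted p of 4.8e-05 and 0.00689), against 0.22 and 0.04 with it, and COX4I1 and COX5B were not called.

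Complex V makes ATP on a catalytic head, driven by a central stalk that turns with a ring in the membrane. The 5 subunits of the head and central stalk had a median log2 fold change of -0.12, with 1 positive value. The 4 of the peripheral stalk had a median of 0.06, and the 3 genes for the ring subunit c had 0.12. Without DMSO 11 the medians were -0.04 for the head and central stalk, 0.17 for the peripheral stalk, where ATP5F1 and ATP5O were called higher, and 0.40 for the ring. ATP5B, the catalytic beta subunit, had 907.3, 1003 and 939.1 CPM in DOX 12, 24 and 36, against 1135, 1051 and 949.6 CPM in DMSO 11, 23 and 35, with overlapping groups (log2 fold change -0.14 ± 0.11, edgeR adjusted p = 0.414). ATP5A1, the alpha subunit beside it, was at 538.5 ± 24.4 CPM in DOX and 572.1 ± 73.2 CPM in DMSO, and ATP5C1, the turning gamma subunit, at 156.5 ± 4.39 CPM in DOX and 169.5 ± 16.5 CPM in DMSO (SD, n = 3 each). ATP5D, the delta subunit of the central stalk, had the lowest fold change of the complex (-0.17 ± 0.13, edgeR adjusted p = 0.417), and ATP5E, the epsilon subunit, had 0.08 ± 0.11. None of these 5 genes differed by more than 1 SD of its DMSO libraries, apart from ATP5B, whose means of 949.7 ± 48.6 CPM in DOX and 1045 ± 92.8 CPM in DMSO differed by slightly more.

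ATP5I, subunit e, helps ATP synthases pair into dimers in the membrane. It had 57.2, 65.7 and 59.7 CPM in DOX 12, 24 and 36, against 56.8, 30.3 and 32.6 CPM in DMSO 11, 23 and 35. DMSO 11 was just under DOX 12, and the other DMSO libraries were at little more than 30 CPM. The log2 fold change was 0.61 ± 0.22 with a 95% interval of 0.11 to 1.11 (edgeR adjusted p = 0.140, DESeq2 0.0639), and 0.95 without DMSO 11 (edgeR adjusted p = 1.0e-08). Exons of MYL5 on the opposite strand cover 61.6% of ATP5I, so its reads could be confused with those of MYL5 if the counting ignored strand. MYL5 had 6.96, 5.88 and 5.67 CPM in the DOX libraries, against 5.32, 8.03 and 8.08 CPM in the DMSO libraries, levels well under those of ATP5I. Its relatives of the same membrane module differed less, ATP5J2 (subunit f) having a log2 fold change of 0.13 and ATP5L (subunit g) -0.08. Without DMSO 11 these were 0.33 (edgeR adjusted p = 0.00229) and -0.03.

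ATP5G1, ATP5G2 and ATP5G3 encode 1 and the same mature ring subunit with different import sequences. ATP5G1 had 77.4, 78.2 and 71.6 CPM in DOX 12, 24 and 36, against 83.6, 46.6 and 45.5 CPM in DMSO 11, 23 and 35. ATP5G2 had 329.6, 339.6 and 342.2 CPM in DOX, against 365.9, 321.9 and 306.9 CPM in DMSO, and ATP5G3 had 111.5, 125.8 and 119.5 CPM in DOX, against 148.2, 91.3 and 88.5 CPM in DMSO. In all 3 genes the DOX libraries lay between DMSO 11 above and DMSO 23 and 35 below. Their log2 fold changes were 0.37, 0.02 and 0.12, none called, and without DMSO 11 those of ATP5G1 and ATP5G3 were 0.72 and 0.40 (edgeR adjusted p of 9.2e-08 and 5.75e-05). ATP5G2 was the most expressed of the 3 per length, at 415.4 ± 8.18 CPM per kilobase in DOX and 408.6 ± 37.8 in DMSO, against 150.4 ± 7.10 in DOX and 116.2 ± 43.1 in DMSO for ATP5G1 and 141.3 ± 8.52 in DOX and 129.9 ± 40.0 in DMSO for ATP5G3 (SD, n = 3 each).

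Levels were compared between members only per length, as CPM per kilobase of the median protein-coding transcript. ATP5B was highest, at 1110 CPM per kilobase in DOX and 1221 in DMSO, followed by ATP5A1 at 591.8 in DOX and 628.7 in DMSO and then ATP5G2. The lowest were NDUFA7, NDUFV2 and NDUFA13, the last at 5.15 CPM per kilobase in DOX and 5.65 in DMSO. NDUFA7 and NDUFV2, 1.64 ± 0.260 and 1.70 ± 0.374 in DOX and 1.32 ± 0.167 and 1.27 ± 0.273 in DMSO, did not differ beyond their spread. The highest member of complex I was NDUFV1, of complex III UQCRC2 (316.9 CPM per kilobase in DOX and 336.1 in DMSO) and of complex II SDHC (306.5 in DOX and 232.0 in DMSO). The order depends on the transcript chosen: with the longest transcript SDHC had 9.13 CPM per kilobase over all libraries, ATP5A1 95.5 and ATP5B 542.4, the last being again the highest. In 23 members exons of another gene overlap on the same strand, and in 32 on the opposite strand, among them ATP5J, whose neighbour on the other strand is GABPA, the gene of an ETS factor. Reads of such pairs cannot be told apart without the strand setting of the counting.

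**Figure D4:**
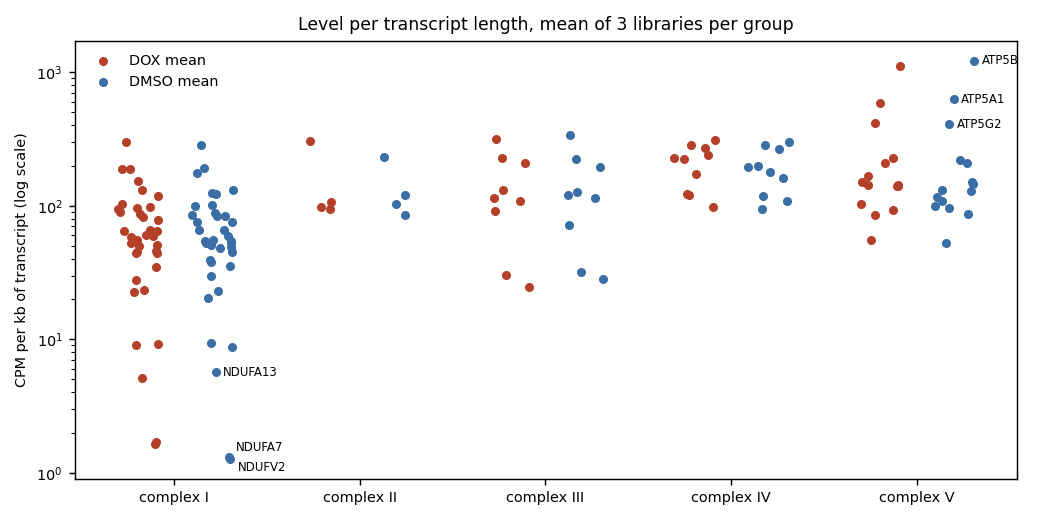
Level of each subunit gene as CPM per kilobase of its median protein-coding transcript (log axis), mean of 3 libraries per group (red, DOX; blue, DMSO), by complex. ATP5B, ATP5A1 and ATP5G2 are highest, at 1110, 591.8 and 415.4 in DOX, and NDUFA7 and NDUFV2 lowest, at 1.64 and 1.70 in DOX.

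Members with short transcripts had the wider ranges between DMSO libraries. Across the 75 members, the length of the median protein-coding transcript had a Spearman correlation of -0.31 with the range over the DMSO libraries and of -0.29 with the log2 fold change, and that of the longest transcript of -0.26 and -0.16, as a description over genes that share the same libraries. The median DMSO range was 0.46 log2 units in the 36 members with transcripts under 700 bases and 0.33 in the 39 longer ones. GC content had a correlation of -0.00 with the DMSO range. Fragment size and RNA quality were not measured in the files used here, and their part in this was not tested.

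Genes that build or serve the complexes, taken from lists, had lower medians than the subunits themselves. With all libraries edgeR called 0 of them, and the DESeq2 calls below are set against the 6.44% of all genes it called lower. As for the members, calls and adjusted p without DMSO 11 give no separate support for a difference in these lists. Without DMSO 11 edgeR called 8 higher and 20 lower of 55 assembly factors, 1 higher and 7 lower of 15 electron carriers and coenzyme Q genes, 1 higher and 5 lower of 15 genes of mitochondrial DNA upkeep and transcription, and 2 higher and 4 lower of 11 regulators, where it called 23.7% of all genes higher and 25.7% lower. Of 55 assembly factors, DESeq2 called 4 lower in DOX, a share near the 6.44% of all genes, and 0 higher. A positive fold change was found in 12 of the 55, and their median log2 fold change was -0.11 both with and without DMSO 11. Every DOX library was below every DMSO library in 18 of the 55, and above them in 1. The first pattern was found in 15.6% of all genes and in 19.1% of genes averaging 10 CPM or more. For the second these shares were 14.6% and 12.6%. The 4 genes were NDUFAF4 of complex I assembly (15.3 ± 0.732 CPM in DOX and 20.8 ± 2.06 CPM in DMSO, SD, n = 3 each), C6orf57 of complex II assembly (12.04 ± 1.01 CPM in DOX and 20.03 ± 3.94 CPM in DMSO), and SURF1 (38.4 ± 0.157 CPM in DOX and 52.0 ± 7.49 CPM in DMSO) and CMC1 (24.1 ± 2.86 CPM in DOX and 36.9 ± 8.57 CPM in DMSO) of complex IV assembly. Their log2 fold changes were -0.44, -0.73, -0.44 and -0.61, with DESeq2 adjusted p of 0.0192, 0.00276, 0.0197 and 0.0228 and edgeR adjusted p of 0.0946, 0.0892, 0.0946 and 0.102. The median was -0.10 for the 17 factors of complex I, -0.27 for the 4 of complex II, -0.15 for the 6 of complex III, -0.09 for the 24 of complex IV and -0.09 for the 4 of complex V. The genes with the highest CPM in each list, given with their log2 fold changes, were COA1 (-0.17) and TIMMDC1 (-0.25) of complex I assembly, ACN9 (-0.32) beside C6orf57 of complex II assembly, TTC19 (-0.28) and UQCC1 (-0.05) of complex III assembly, LRPPRC (-0.18) and COX11 (-0.06) of complex IV assembly, and ATPAF1 (-0.15) and TMEM70 (-0.02) of complex V assembly. None of these but C6orf57 was called by either tool with all libraries. Without DMSO 11 edgeR called C6orf57 lower (adjusted p = 3.2e-07). It also called COA1, TIMMDC1, ACN9, TTC19 and LRPPRC lower (adjusted p of 0.0249, 0.0208, 0.000896, 0.000102 and 0.0194). UQCC1, COX11, ATPAF1 and TMEM70 were not called. The highest log2 fold change of the 55 was that of COA4 of complex IV assembly, 0.62 (edgeR adjusted p = 0.189). Without DMSO 11 it was 1.07 (edgeR adjusted p = 1.2e-09). COA4 was 1 of the 8 factors then called higher, against 20 called lower.

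Electron carriers and enzymes of coenzyme Q synthesis were 15 genes with a median log2 fold change of -0.24. In 9 of them every DOX library was below every DMSO library and in 0 above, against 15.6% and 14.6% of all genes. Among genes averaging 10 CPM or more these shares were 19.1% and 12.6%. DESeq2 called 3 lower: ETFA, which carries electrons from fat oxidation (-0.39), and COQ5 (-0.44) and COQ9 (-0.29) of coenzyme Q synthesis, with adjusted p of 0.0175, 0.0446 and 0.0444 by DESeq2. CYCS, cytochrome c itself, was at 302.3 ± 21.4 CPM in DOX and 285.7 ± 25.8 CPM in DMSO (SD, n = 3 each), within the spread, and the coenzyme Q kinase ADCK3 had a log2 fold change of -0.29. Among 15 genes of mitochondrial DNA upkeep and transcription the median was -0.10. DESeq2 called 1 of the 15 lower, a share near that of all genes, namely the nuclease MGME1 (-0.65, adjusted p = 0.0109). TFAM, the packaging and transcription factor of mitochondrial DNA, had 143.9, 145.4 and 143.2 CPM in DOX, against 164.3, 156.2 and 172.7 CPM in DMSO. Its groups did not overlap (-0.19 ± 0.08, edgeR adjusted p = 0.175), and without DMSO 11 it was called lower (-0.19, edgeR adjusted p = 0.0191). POLG, the mitochondrial DNA polymerase, had a log2 fold change of 0.16, and of 0.42 without DMSO 11 (edgeR adjusted p = 1.39e-05). Of 11 regulators of nuclear genes for mitochondria 0 were called by either tool with all libraries, with a median of -0.07. Among them NRF1 had 39.3, 41.4 and 39.2 CPM in DOX, against 45.8, 56.4 and 46.8 CPM in DMSO (-0.31 ± 0.10, edgeR adjusted p = 0.121 and DESeq2 0.0796), YY1 had a log2 fold change of -0.20 and GABPA of -0.09. Without DMSO 11 NRF1 and YY1 were called lower, at -0.37 and -0.28 (edgeR adjusted p of 0.000742 and 0.000763). The regulators with the highest CPM, HCFC1 and SP1, had 0.38 ± 0.17 and -0.35 ± 0.15 (edgeR adjusted p of 0.201 and 0.177), and 0.59 and -0.51 without DMSO 11 (adjusted p of 2.2e-05 and 6.1e-06). The 7 measured subunits and regulators of the complexes outside the rule, such as COX7A2L (-0.02) and ATPIF1 (0.02), had a median of 0.01 with 0 called, near that of the subunits.

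**Figure D5:**
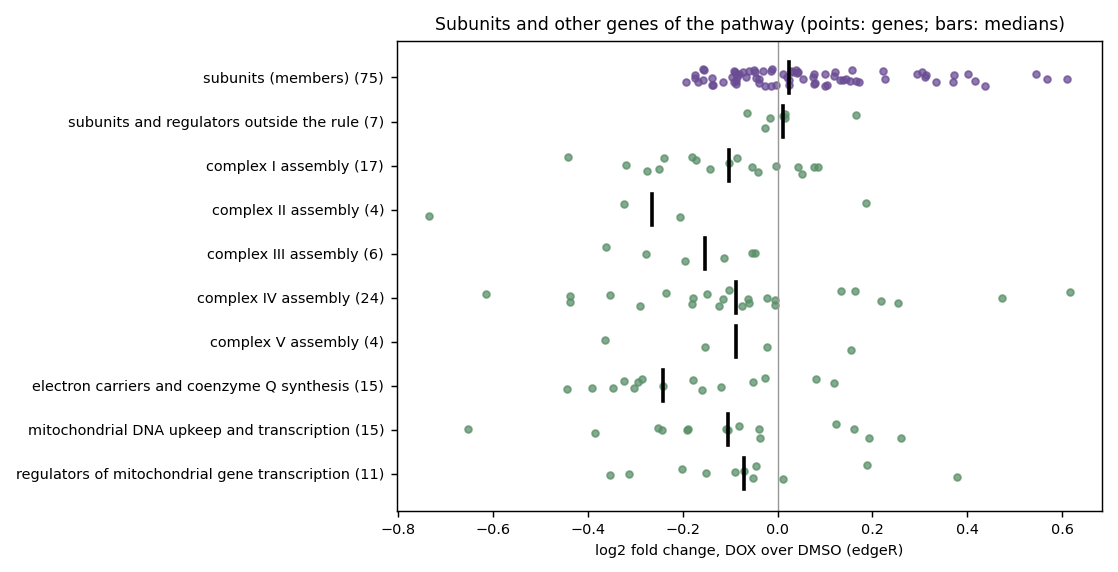
Log2 fold change, DOX over DMSO, by edgeR of the subunit genes (purple) and of other genes of the pathway (green), 1 point per gene, with the median of each list (bars) and the number of genes in brackets. The subunits' median is 0.02, that of electron carriers and coenzyme Q synthesis -0.24.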

How the data were processed

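The authors deposited raw read counts per Ensembl gene for 6 libraries and, per the file headers, their own table of the DOX over DMSO comparison, with columns for mean normalised signal, log2 fold change, standard error, test score and p-value. Per the submitters' processing notes, STAR 2.5.2a, featureCounts and DESeq2 1.12.4 were used with build hg19. Not given in the sources used here: the annotation release, the strand setting of the counting and the handling of reads shared by near-identical genes. Count columns show their group and a number found in no label, so a column has a group but no replicate number. The 92 spike-in rows held 0 counts and were left out. Every pair of libraries differed by more than counting noise (mean chi-square per gene at least 4.57).

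Genes passing edgeR's filterByExpr were tested with edgeR 4.0.16 in R 4.3.3 (TMM scaling, robust quasi-likelihood F test, no covariate) with Benjamini-Hochberg adjustment over 15949 genes at 0.05. Standard errors are the log2 fold change divided by the square root of F. For log2 CPM the prior count was 2. Alternatives were limma's voom (3.58.1), DESeq2 1.42.0, other scalings and filters, a threshold of 0.01 and each library left out. Exact permutation tests were two-sided. The tests were tried on simulated data. Transcript lengths and exon overlaps came from GENCODE 29, whose build differs from the authors', and promoters from RefSeq (GRCh38.p14).

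The genes, lists and tests were chosen with earlier results of these data known. Genes named singly were the core subunits (1 is not reported here), the members with the highest and the lowest fold change and level per length in each complex, and, since edgeR called none in the other lists, the 2 genes of each list with the highest CPM. DESeq2 calls in the other lists, COA4, members with calls or wide ranges in a comparison, and factors whose motifs were searched were named after their values were seen. Figures were drawn with matplotlib 3.10.9.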

Additional observations from a re-analysis of the deposited data

How the results depend on the processing

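With all 6 libraries, 0 members were called under any scaling, filter, threshold or tool tried. Leaving out each library in turn gave 0 to 25 members called higher and 0 to 2 called lower in DOX, and every value above 0 came from leaving out DMSO 11. The members' median log2 fold change ran from -0.06 to 0.13 over these, and that of complex III from -0.12 to 0.083. Leave-one-out ranges of single genes were made for the core subunits reported and each complex's extremes in fold change and level per length. Other members named above were not included. The ranges crossed 0 in 8 genes, all uncalled with all libraries: NDUFS3 ran from -0.071 to 0.041, CYC1 from -0.15 to 0.035, COX4I1 from -0.093 to 0.14, ATP5A1 from -0.15 to 0.022, ATP5G2 from -0.032 to 0.10, ATP5G3 from -0.013 to 0.40, COX7C from -0.064 to 0.24 and ATP5E from -0.018 to 0.15. Upper quartile scaling turned NDUFS3 to 0.020. With the 100 bases before the start in place of 250, the NRF1 core was in 5 of 61 promoters (8.20%), against 1.82% of all genes. The E-box was then in 0, against 5.44%. Causes were not tested. The medians of the other lists under other tools and leave-one-out, added after seeing the data, kept their sign for the assembly factors as a whole (-0.13 to -0.09). No paired analysis was possible because the count columns carry none of the replicate numbers in the labels, and their own numbers, which no label explains, were not used to pair libraries. With 3 libraries per group, 14 members had intervals that reach a 1.5-fold higher level in DOX, so their differences are not bounded below that size. The intervals of the other members bound differences between these libraries only. Among these 14, the interval of ATP5I left out 0.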
